A study of Mus musculus with 11 samples.

Results

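The genes described here are 8 genes of cholesterol synthesis in AML12 cells, taken by name from a table of 24849 genes: *Srebf2*, *Insig1*, *Hmgcs1*, *Idi1*, *Fdps*, *Fdft1*, *Sqle* and *Msmo1*. None of them encodes a protein that takes cholesterol up, and genes of uptake are described only through a list of their own. AML12 is a mouse hepatocyte line, and polyadenylated RNA was sequenced from 11 libraries of 3 groups. The 3 WT libraries came from unedited AML12 cells. The 4 KO libraries carry the genotype label TXNDC5 Knockdown, whereas the paper calls the line a knockout, made with CRISPR/Cas9 in the fifth exon of *Txndc5* and selected as puromycin-resistant cells. The 4 KI libraries carry the label TXNDC5 Knockin, from cells that overexpress TXNDC5 from the ROSA26 locus. How many clones stand behind either edited line is not given in the sources used here. The paper's culture medium, which held fetal bovine serum and dexamethasone, is described for AML12 cells without a difference between lines. Replicates are numbered 5 to 8, except that the WT libraries are numbered 5-6, 7 and 8, where 5-6 is 1 library. Because nothing says that libraries came from separate cultures, the p-values measure only the spread between these libraries, which may be technical.

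Cholesterol is made from acetyl-CoA through mevalonate, the isoprenoid farnesyl diphosphate, squalene and lanosterol. Transcription of nearly all of these enzymes is driven by SREBP2, the protein product of *Srebf2*, which is held in the endoplasmic reticulum (ER) by INSIG proteins while sterols are plentiful. When ER sterols fall, the escort protein SCAP carries SREBP2 to the Golgi, where it is cleaved, and its released part enters the nucleus and binds sterol regulatory elements in promoters. The liver is a main site of cholesterol synthesis, and TXNDC5 is itself a resident protein of the ER.

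A KO library held 30380360 to 38422243 counts in total, a WT library 29840366 to 30364098 and a KI library 32360709 to 35335070. Each of the 8 genes had 1 entry in the table, at least 1863 counts in every library, and passed the filter on low counts in every comparison. Levels are given in CPM, counts scaled to library size with edgeR's TMM factors over all 11 libraries. *Txndc5* had 8.50 to 12.9 CPM in the KO, 138 to 147 CPM in the WT and 158 to 179.5 CPM in the KI libraries. Its log2 fold change was -3.81 in KO against WT (adjusted p = 4.09e-08) and 0.24 in KI against WT (adjusted p = 0.136). Every adjusted p given here comes from the quasi-likelihood test of edgeR, adjusted by Benjamini-Hochberg over all genes tested. The level of *Txndc5* in the KI libraries thus lay above all WT libraries without passing the test, which it passed with library totals in place of TMM (0.57, adjusted p = 0.00623). The TMM factors were 0.744 to 0.947 in the WT, 1.05 to 1.13 in the KO and 1.02 to 1.12 in the KI libraries, so the choice of scaling touches each comparison with WT. Scaled by library totals alone, all genes had a median log2 fold change of 0.38 in KO against WT and 0.30 in KI against WT, compared with -0.03 and -0.02 after TMM. Of 7 hepatocyte markers, none was at or under 3 counts in every library, with a summed level of 7613 to 9734 CPM in the KO, 4670.2 to 6510.2 CPM in the WT and 6398 to 7855 CPM in the KI libraries. These markers did not move together: in KO against WT *Alb* (log2 2.99), *Apoa1* (3.77), *Hnf4a* (1.35) and *Tat* (at most 1.57 CPM in any library) were higher, *Ttr* (-0.93) was lower, and *Krt8* (-0.11) and *Krt18* (-0.10) were not called. In KI against WT *Krt8* (0.62) and *Krt18* (0.86) were higher, *Alb* (-1.06) was lower and the other 4 were not called. The 4 biliary markers summed to 1086 to 1221, 861 to 1091 and 709.6 to 974 CPM in the same order, with *Epcam* at or under 3 counts throughout. Within that sum *Krt7* was lower in KO (-3.40) and in KI (-0.59) against WT, *Sox9* was lower in KO (-0.47) and not called in KI (-0.36), and *Krt19* was higher in KO (0.49) and not called in KI (-0.04). The 4 macrophage markers summed to 1.32 to 2.21 CPM in the KO, 6.73 to 9.20 CPM in the WT and 2.52 to 5.66 CPM in the KI libraries, with *Adgre1* at or under 3 counts. The 5 fibroblast or stellate and 3 endothelial markers stayed at or under 1.04 and 0.425 CPM. The part of these shifts in the results below was not tested.

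Promoter sequences were available for 5 of the 8 genes. They come from RefSeq on GRCm38.p6, whose table held *Srebf2*, *Hmgcs1*, *Idi1*, *Msmo1* and *Insig1*, and not *Fdps*, *Fdft1* and *Sqle*. The 250 bases before the RefSeq start were searched on both strands for TCACNCCA, the core of a sterol regulatory element, for CCAAT, the box bound by NF-Y, and for GGGCGG, the box bound by Sp1. NF-Y and Sp1 are factors known to act beside SREBPs. The sterol core was found in 3 of the 5 promoters (*Srebf2*, *Hmgcs1* and *Msmo1*), against 3.58% of 27025 promoters. The NF-Y box and the Sp1 box were each found in 5 of 5, against 34.5% and 32.9% of all promoters. The stretches that follow hold the sterol core or, where none was found, an NF-Y box. They run 5′ to 3′ on the strand of the gene, capitals mark the matches, and ATTGG and CCGCCC are the NF-Y and Sp1 boxes read from the other strand. They lie at chr15:82147081-82147140 (plus strand), chr13:119690188-119690247 (plus), chr8:64733737-64733766 (minus), chr13:8885549-8885578 (plus) and chr5:28071170-28071229 (plus).
Srebf2: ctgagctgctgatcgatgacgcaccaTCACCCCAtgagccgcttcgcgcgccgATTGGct
Hmgcs1: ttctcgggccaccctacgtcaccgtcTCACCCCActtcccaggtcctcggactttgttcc
Msmo1: tctcactattcTCACTCCAtccgcgcagcc
Idi1: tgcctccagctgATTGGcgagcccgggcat
Insig1: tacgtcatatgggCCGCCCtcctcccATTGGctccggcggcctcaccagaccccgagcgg

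The sterol cores of *Srebf2* and *Hmgcs1* have the same 8 bases, TCACCCCA, which lie 162 and 137 bases before the RefSeq start, and that of *Msmo1* is TCACTCCA at 177 bases. For *Msmo1* and *Idi1*, GENCODE annotates a start 214 and 105 bases further upstream, so that all their matches and printed stretches lie within an annotated transcript. The same holds for the Sp1 boxes of *Srebf2* at 79, 52 and 34 bases, as GENCODE annotates a start 88 bases upstream. A match is a run of letters and not a measured binding site.

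The 8 genes did not move as a block. *Hmgcs1* and *Sqle* were 1.83- to 2.48-fold higher in the edited lines than in the WT cells, *Fdps* was 1.42-fold higher in the KO and 1.54-fold higher in the KI cells, and *Srebf2* itself did not pass the test in any comparison. In bulk RNA, fewer cells of a type and less RNA per cell cannot be told apart. *Msmo1* and *Idi1* were lower in the KO than in the KI cells, of which only *Msmo1* had groups that did not overlap. In the plot of levels by library, the 3 WT libraries lie below all edited libraries for *Hmgcs1*, *Fdps* and *Sqle* only.

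**Figure D1:**
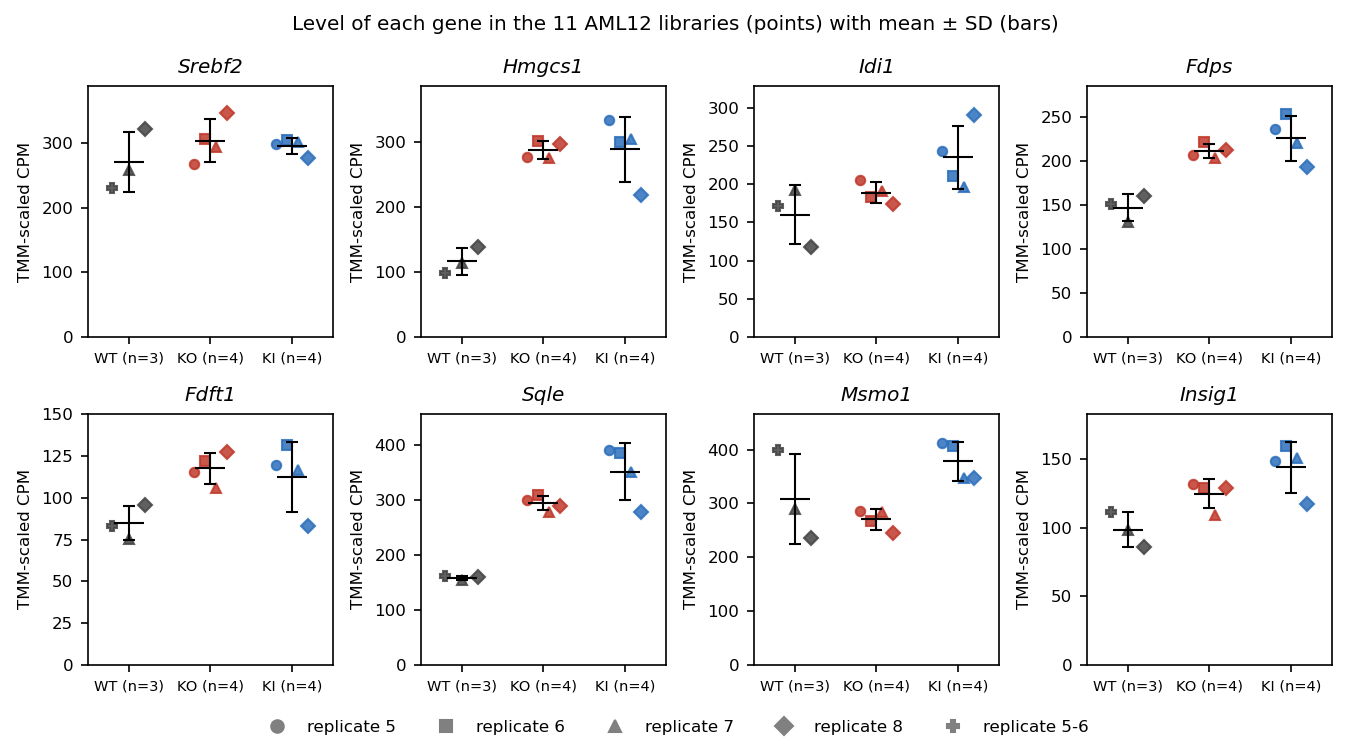
TMM-scaled CPM of each gene (vertical axes, linear, from 0) in the WT, KO and KI libraries, with 1 point per library shaped by its replicate number and bars for the mean ± SD. *Hmgcs1* lies between 97.8 and 137.6 CPM in the WT and between 217.5 and 333.4 CPM in the edited libraries, whereas the *Srebf2* groups overlap.

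*Srebf2* encodes the transcription factor SREBP2, the driver of the pathway. Its level was 268, 306, 293 and 346 CPM in KO replicates 5, 6, 7 and 8, 230.5, 259 and 320.5 CPM in WT replicates 5-6, 7 and 8, and 298, 304, 300.4 and 276 CPM in KI replicates 5, 6, 7 and 8. The WT libraries spanned more than the KI libraries did, and all 3 groups overlapped. The log2 fold change was 0.15 (95% interval -0.18 to 0.47, adjusted p = 0.419) in KO against WT and 0.13 (-0.19 to 0.44, adjusted p = 0.515) in KI against WT. Without WT replicate 8, the highest WT library, the KO value was 0.32 and passed the test (adjusted p = 0.0403). It also passed with library totals in place of TMM, at 0.54, which is to be read against the shift of 0.38 in the median of all genes.

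*Insig1* encodes the ER protein that retains the SCAP and SREBP complex, and it is itself a target of SREBPs. Its level was 131.5, 129, 109 and 129 CPM in the KO, 111, 98.1 and 85.9 CPM in the WT and 148, 159.6, 151 and 117 CPM in the KI libraries, in the order of replicates used above. WT replicate 5-6 reached the level of KO replicate 7, and all KI libraries lay above all WT libraries. *Insig1* rose 1.46-fold in KI against WT (log2 0.55 ± 0.15 SE, adjusted p = 0.0114). In KO against WT its log2 fold change of 0.32 ± 0.13 SE had an adjusted p of 0.055, just past the threshold. That value became a call without WT replicate 5-6 (0.44), without KO replicate 7 (0.38), by DESeq2 (0.30), with all 11 libraries in a single fit (0.34) and with library totals (0.75).

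*Hmgcs1* encodes the cytosolic HMG-CoA synthase, which condenses acetoacetyl-CoA with acetyl-CoA. Its level was 276, 301, 275 and 296 CPM in the KO, 97.8, 113 and 138 CPM in the WT and 333, 299, 304 and 217.5 CPM in the KI libraries. Every edited library lay above every WT library, and KI replicate 8 was the lowest of the edited ones. *Hmgcs1* rose 2.44-fold in the KO cells (95% interval 1.97 to 3.02, log2 1.28 ± 0.14 SE, adjusted p = 2.92e-05). The rise in the KI cells was 2.48-fold (1.90 to 3.25, log2 1.31 ± 0.18 SE, adjusted p = 0.000119). This was the largest rise among the 8 genes in both comparisons.

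*Idi1* encodes isopentenyl diphosphate isomerase, which makes the allylic starter of isoprenoid chains. Its level was 206, 184, 191 and 174 CPM in the KO, 172, 192 and 117 CPM in the WT and 243, 211, 196.5 and 289.8 CPM in the KI libraries. The KI libraries lay above the WT libraries, of which replicate 8 was the lowest, and the KO and WT libraries overlapped. *Idi1* rose 1.46-fold in KI against WT (log2 0.55 ± 0.19 SE, adjusted p = 0.0338), and in KO against WT its log2 fold change was 0.21 (95% interval -0.15 to 0.58, adjusted p = 0.298). The KI call was lost without WT replicate 8 (log2 0.37), and also without KI replicate 5, 6 or 8. The table holds a second gene with the annotation of this isomerase, *Gm38481*, placed by RefSeq on GRCm38.p6 at chr2:53694340-53696857. It was chosen after its values were seen, and its counts, 1268 to 4100, were 36.7% to 44.9% of those of *Idi1* in the same library. Its log2 fold changes were 0.12 in KO against WT and 0.53 in KI against WT. Whether reads were split between both genes was not tested.

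*Fdps* encodes farnesyl diphosphate synthase, at the branch between sterols and other isoprenoids. Its level was 207, 221, 203 and 213 CPM in the KO, 151, 131 and 160.0 CPM in the WT and 237, 253, 220.2 and 193 CPM in the KI libraries. No edited library overlapped a WT library. *Fdps* rose 1.42-fold in the KO cells (log2 0.50 ± 0.12 SE, adjusted p = 0.00363) and 1.54-fold in the KI cells (log2 0.62 ± 0.14 SE, adjusted p = 0.00426).

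*Fdft1* encodes squalene synthase, the first enzyme committed to sterols. Its level was 115, 122, 106 and 127 CPM in the KO, 83.1, 75.7 and 95.8 CPM in the WT and 119.5, 132, 117 and 82.9 CPM in the KI libraries. The KO libraries lay above the WT libraries, whereas KI replicate 8 fell within the WT range. *Fdft1* rose 1.37-fold in the KO cells (log2 0.45 ± 0.12 SE, adjusted p = 0.00979). In KI against WT the log2 fold change was 0.41 ± 0.17 SE with an adjusted p of 0.0635, and it was called without KI replicate 8 (0.54) and without WT replicate 8 (0.51). In GENCODE vM21, 774 of its 4227 exonic bases are shared with *Ctsb* on the other strand, a gene with 10892 to 19975 counts. The library protocol names no step that marks strand, so reads of that stretch cannot be told apart, and *Ctsb* moved the other way, at -0.84 in KO and -0.55 in KI against WT on the log2 scale. *Fdps* shares 1124 of 4208 exonic bases with *Gm43738* on the same strand. On the other strand, *Hmgcs1* shares 557 of 4594 with *Gm48342*, and *Idi1* 323 of 3505 with *Gm48574*. These overlapping genes had no counts under their names.

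*Sqle* encodes squalene epoxidase, a rate-limiting enzyme of the sterol branch. Its level was 300.1, 310.0, 279 and 289 CPM in the KO, 161, 154 and 161 CPM in the WT and 390.4, 385, 351.5 and 278 CPM in the KI libraries. The WT libraries lay close together, and every edited library was above them. *Sqle* rose 1.83-fold in the KO cells (95% interval 1.54 to 2.17, log2 0.87 ± 0.11 SE, adjusted p = 8.64e-05). In the KI cells it rose 2.21-fold (1.76 to 2.78, log2 1.15 ± 0.15 SE, adjusted p = 0.000103).

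*Msmo1* encodes a methylsterol monooxygenase that acts in the removal of methyl groups after lanosterol. Its level was 286, 267.5, 283 and 245 CPM in the KO, 398.5, 289.7 and 235 CPM in the WT and 413, 407, 347 and 347 CPM in the KI libraries. The WT libraries spanned the whole range of the KO libraries and reached into that of the KI libraries. Its log2 fold change was -0.21 (95% interval -0.58 to 0.16, adjusted p = 0.322) in KO against WT and 0.30 (-0.09 to 0.68, adjusted p = 0.194) in KI against WT. The KO value passed the test without WT replicate 8, at -0.34, was 0.04 without WT replicate 5-6, and turned to 0.23 with library totals. The KI value passed without WT replicate 5-6, at 0.53, and with library totals, at 0.65.

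The first comparison set the KO cells against the unedited WT cells. Besides TXNDC5, the KO cells differ from WT in having been transfected and selected with puromycin. These differences cannot be told apart in this design. In KO against WT, 4 of the 8 genes rose (*Hmgcs1*, *Sqle*, *Fdps* and *Fdft1*) and 0 fell. Of all 13359 genes tested, 55.1% were called, 26.7% higher and 28.4% lower. The same 4 genes were those whose KO libraries all lay above the WT libraries, against 28.2% of all genes. The median log2 fold change of the 8 genes was 0.39, against -0.03 over all genes. With library totals, 7 of the 8 were called higher, with a median of 0.80 against 0.38 over all genes. Under that scaling 5675 of all 13359 genes were called higher and 2124 lower.

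The second comparison set the KI cells against the same WT libraries. Here 5 of the 8 genes rose (*Hmgcs1*, *Sqle*, *Fdps*, *Idi1* and *Insig1*) and 0 fell, with a median of 0.55 against -0.02 over all genes. Of 13534 genes tested, 42.3% were called, 21.2% higher and 21.0% lower. The same 5 genes had KI libraries that all lay above the WT libraries, against 23.4% of all genes. With library totals, 7 genes were called higher, where 4620 of all 13534 genes were called higher and 1438 lower. Both comparisons share the 3 WT libraries, so a value that stands apart in WT enters both.

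**Figure D2:**
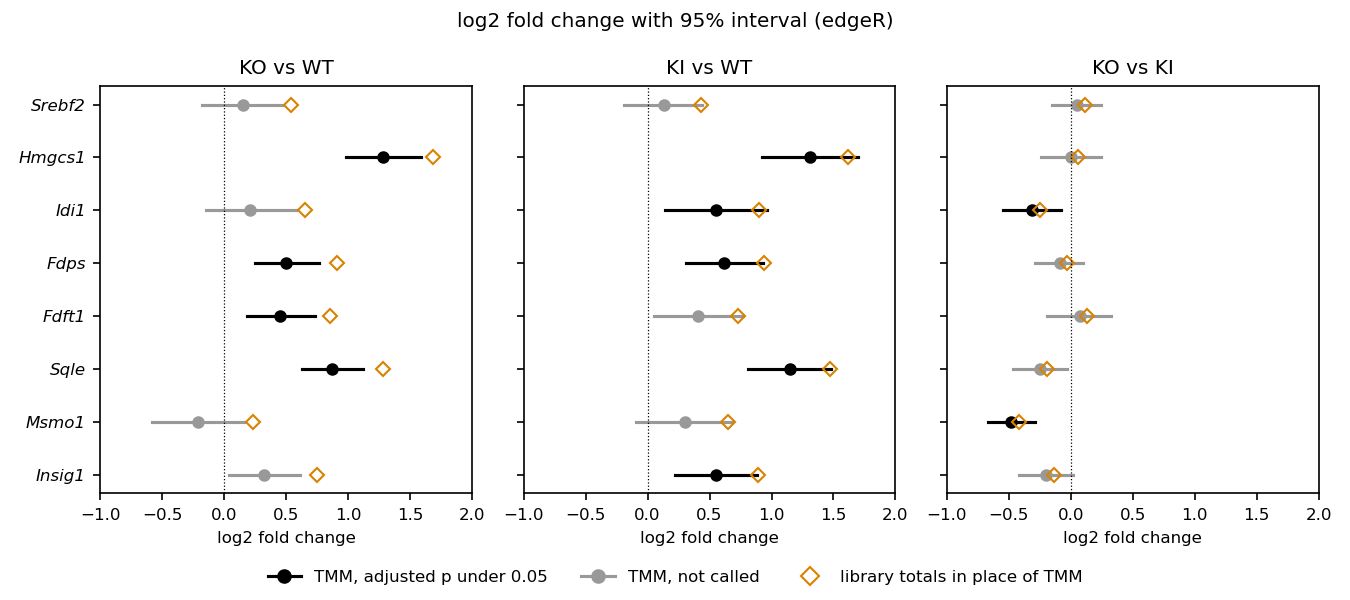
Log2 fold change (horizontal axes) of the 8 genes in KO against WT, KI against WT and KO against KI, with 95% intervals from edgeR. Filled circles are black where the adjusted p is under 0.05 and grey otherwise, and open diamonds give the value with library totals in place of TMM, such as 1.28 and 1.68 for *Hmgcs1* in KO against WT.

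The third comparison tested the edited lines against each other, without the WT libraries. *Msmo1* was lower in the KO than in the KI cells, at a log2 fold change of -0.48 (95% interval -0.67 to -0.29, adjusted p = 0.000371), and no KO library reached the lowest KI library. *Idi1* was lower in the KO cells by a log2 fold change of -0.31 (adjusted p = 0.0265) with overlapping groups, a call that was lost when KO replicate 6, 7 or 8 or KI replicate 5 or 8 was left out. *Gm38481* had a log2 fold change of -0.38 here (adjusted p = 0.0198). Of 13269 genes tested, 54.0% were called and 27.0% were called lower, against 2 of the 8 genes here. Non-overlapping groups with lower KO libraries were found for 1 of the 8 genes and for 24.4% of all genes.

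*Hmgcs1* was at 0.998-fold in KO against KI, and its 95% interval of 0.845 to 1.18 bounds the difference. *Srebf2* (1.03-fold, 0.903 to 1.18), *Fdps* (0.938-fold, 0.820 to 1.07) and *Fdft1* (1.05-fold, 0.874 to 1.25) did not pass the test either. *Sqle* had a log2 fold change of -0.25 (adjusted p = 0.0534) and *Insig1* one of -0.20 (adjusted p = 0.108). Both were called without KI replicate 8, at -0.36 and -0.30. KI replicate 8 was the lowest KI library for *Srebf2*, *Hmgcs1*, *Fdps*, *Fdft1*, *Sqle* and *Insig1*, and the highest for *Idi1*.

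To remove the scaling between libraries, the count of each gene was divided by the geometric mean of the other 7 genes in the same library and expressed as log2. A gene's length is not taken out, so these relative levels compare groups and not genes. *Hmgcs1* had a relative level of 0.43, 0.54, 0.50 and 0.54 in the KO, -0.77, -0.46 and -0.14 in the WT and 0.46, 0.28, 0.44 and 0.10 in the KI libraries. *Sqle* had 0.57, 0.59, 0.53 and 0.50 in the KO, 0.06, 0.06 and 0.11 in the WT and 0.72, 0.70, 0.68 and 0.50 in the KI libraries. For both genes every edited library lay above every WT library, so that their share among the 8 genes was larger in both lines without any scaling factor.

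The relative level of *Srebf2* had a mean of 0.94 in the WT, 0.59 in the KO and 0.37 in the KI libraries, and all KI libraries lay below all WT libraries. That of *Msmo1* had a mean of 1.13 in the WT, 0.40 in the KO and 0.78 in the KI libraries, with all KO libraries below both other groups. *Idi1*, *Fdps*, *Fdft1* and *Insig1* had overlapping groups in all 3 comparisons. A two-sided exact permutation test of 4 against 3 libraries cannot go below p = 0.0571, the value reached by *Hmgcs1* and *Sqle* in both comparisons with WT, by *Msmo1* in KO against WT and by *Srebf2* in KI against WT. In KO against KI the smallest p that the exact permutation test can give, 0.0286, was reached by *Msmo1* among the 8 genes tested. These p-values are not adjusted for the 8 tests, which are not independent of each other, and the measure was chosen after the values were seen. A relative level also falls when other genes of the 8 rise, so a lower one need not mean a fall of the gene itself. *Srebf2* had a log2 fold change of 0.13 in KI against WT (adjusted p = 0.515), where *Hmgcs1* and *Sqle* rose by 1.31 and 1.15. *Msmo1* was at -0.21 in KO against WT (adjusted p = 0.322). The permutation p of *Srebf2* and *Msmo1* against WT thus cannot tell a fall of the gene from a rise of the others.

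**Figure D3:**
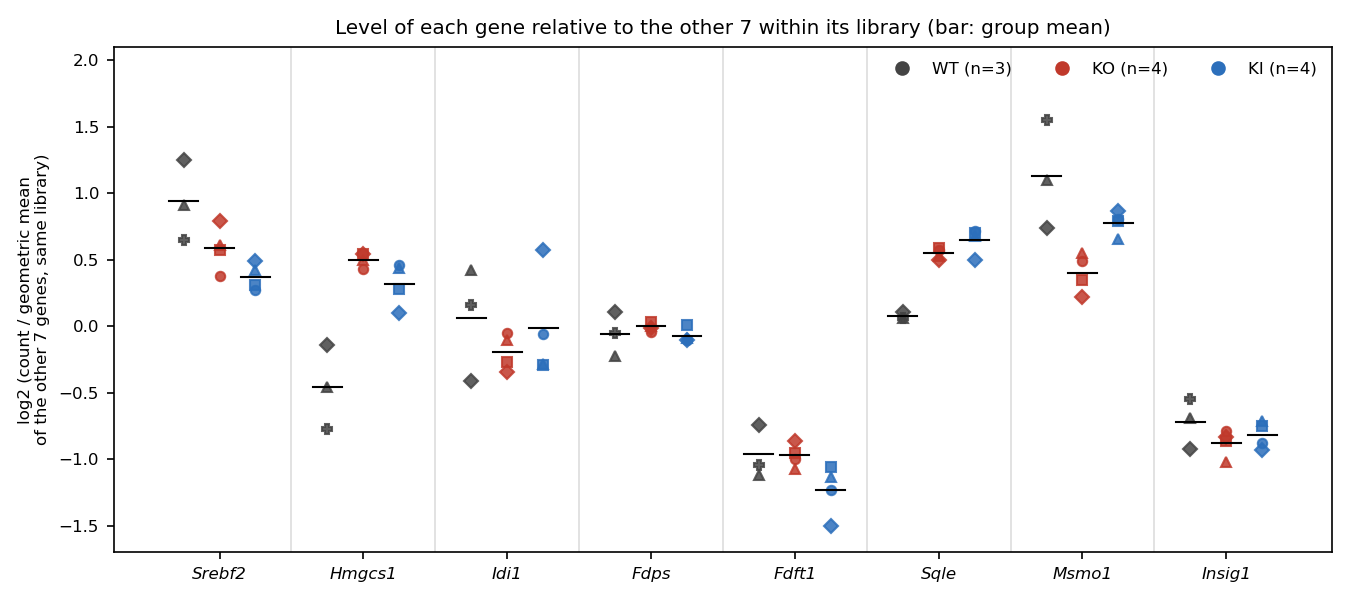
Relative level of each gene within its library, as log2 of its count over the geometric mean of the other 7 genes (vertical axis), with 1 point per library, shaped by replicate as in the plot of levels, and a bar for the group mean. *Hmgcs1* is below 0 in all 3 WT libraries and above 0 in all 8 edited libraries, and *Msmo1* is lower in every KO library than in any other library.

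Across the 11 libraries the levels of *Sqle*, *Fdps* and *Hmgcs1* moved most alike, with Pearson's r of 0.97 for *Sqle* and *Fdps*, 0.96 for *Sqle* and *Hmgcs1* and 0.94 for *Hmgcs1* and *Fdps* on log2 values. *Srebf2* and *Msmo1* had the lowest value, at -0.45. After subtraction of the group means, *Fdft1* and *Fdps* were at 0.92, whereas *Idi1* was at -0.77 with *Srebf2*, -0.78 with *Fdft1*, -0.73 with *Hmgcs1* and -0.71 with *Fdps*. *Idi1* thus varied within groups against several enzymes of its own pathway, as WT replicate 8 and KI replicate 8 show. This was not particular to *Idi1*: *Msmo1* was at -0.75 with *Srebf2*, and at 0.46 with *Idi1*, on the same measure. These values share libraries and scaling factors and are descriptions only.

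Other genes of the pathway were read from lists, which do not hold every gene of the pathway and in part include some of the 8 genes. Their counts stand against 26.7% of all genes higher and 28.4% lower in KO against WT. In KI against WT these shares were 21.2% higher and 21.0% lower. The 14 further listed enzymes of cholesterol synthesis had 8 genes higher and 1 lower in KO against WT, with a median log2 fold change of 0.58 against -0.03 over all genes. In KI against WT, 10 of the 14 were higher and 0 lower, with a median of 0.68 against -0.02. With library totals 13 were higher in KO (median 1.01 against 0.38 over all genes) and 12 in KI against WT (median 0.99 against 0.30). Over all genes that scaling called 5675 of 13359 higher in KO and 4620 of 13534 in KI against WT. Among the listed genes of the mevalonate steps, with *Hmgcs1*, *Idi1* and *Fdps* included, 4 of 7 were higher in the KO and 7 of 7 in the KI cells. *Acat2*, which makes acetoacetyl-CoA, rose by 0.87 in the KO and 1.08 in the KI cells on the log2 scale, and its level was 70.8 to 86.6 CPM in the WT against 135 to 145 CPM in the KO libraries. *Mvk*, the mevalonate kinase, rose by 1.18 in the KO (adjusted p = 8.19e-05) and by 0.74 in the KI cells (adjusted p = 0.00232). In the direct test *Mvk* was higher in the KO than in the KI cells, by 0.47 (adjusted p = 0.000909).

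The squalene and lanosterol steps (*Fdft1*, *Sqle* and lanosterol synthase, *Lss*) had 2 of 3 genes higher in the KO and 1 of 3 in the KI cells. Of 10 genes after lanosterol, *Msmo1* included, 6 were higher and 1 lower in the KO cells, and 6 were higher and 0 lower in the KI cells. *Hsd17b7*, a sterol ketone reductase, rose by 1.18 in the KO (adjusted p = 5.8e-05) and by 1.24 in the KI cells (adjusted p = 6.61e-05) on the log2 scale. *Nsdhl*, the decarboxylating sterol dehydrogenase, rose by 0.91 and 1.13, and *Dhcr7*, the enzyme of the last step on a route to cholesterol, rose by 1.03 and 0.77. *Tm7sf2*, a sterol reductase, was lower in the KO cells, by a log2 fold change of -0.50 (adjusted p = 0.00441). It was at 0.01 in the KI cells (adjusted p = 0.955), and lower in KO than in KI cells in the direct test (-0.49, adjusted p = 0.000368). The value of *Tm7sf2* in KO against WT was -0.08 with library totals and was then not called. *Lbr*, another sterol reductase of this list, went the other way in the KO cells. It was higher at 0.70 in KO (adjusted p = 0.0011) and 0.51 in KI against WT (adjusted p = 0.0151). In KO against KI it was at 0.21 (adjusted p = 0.0473).

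**Figure D4:**
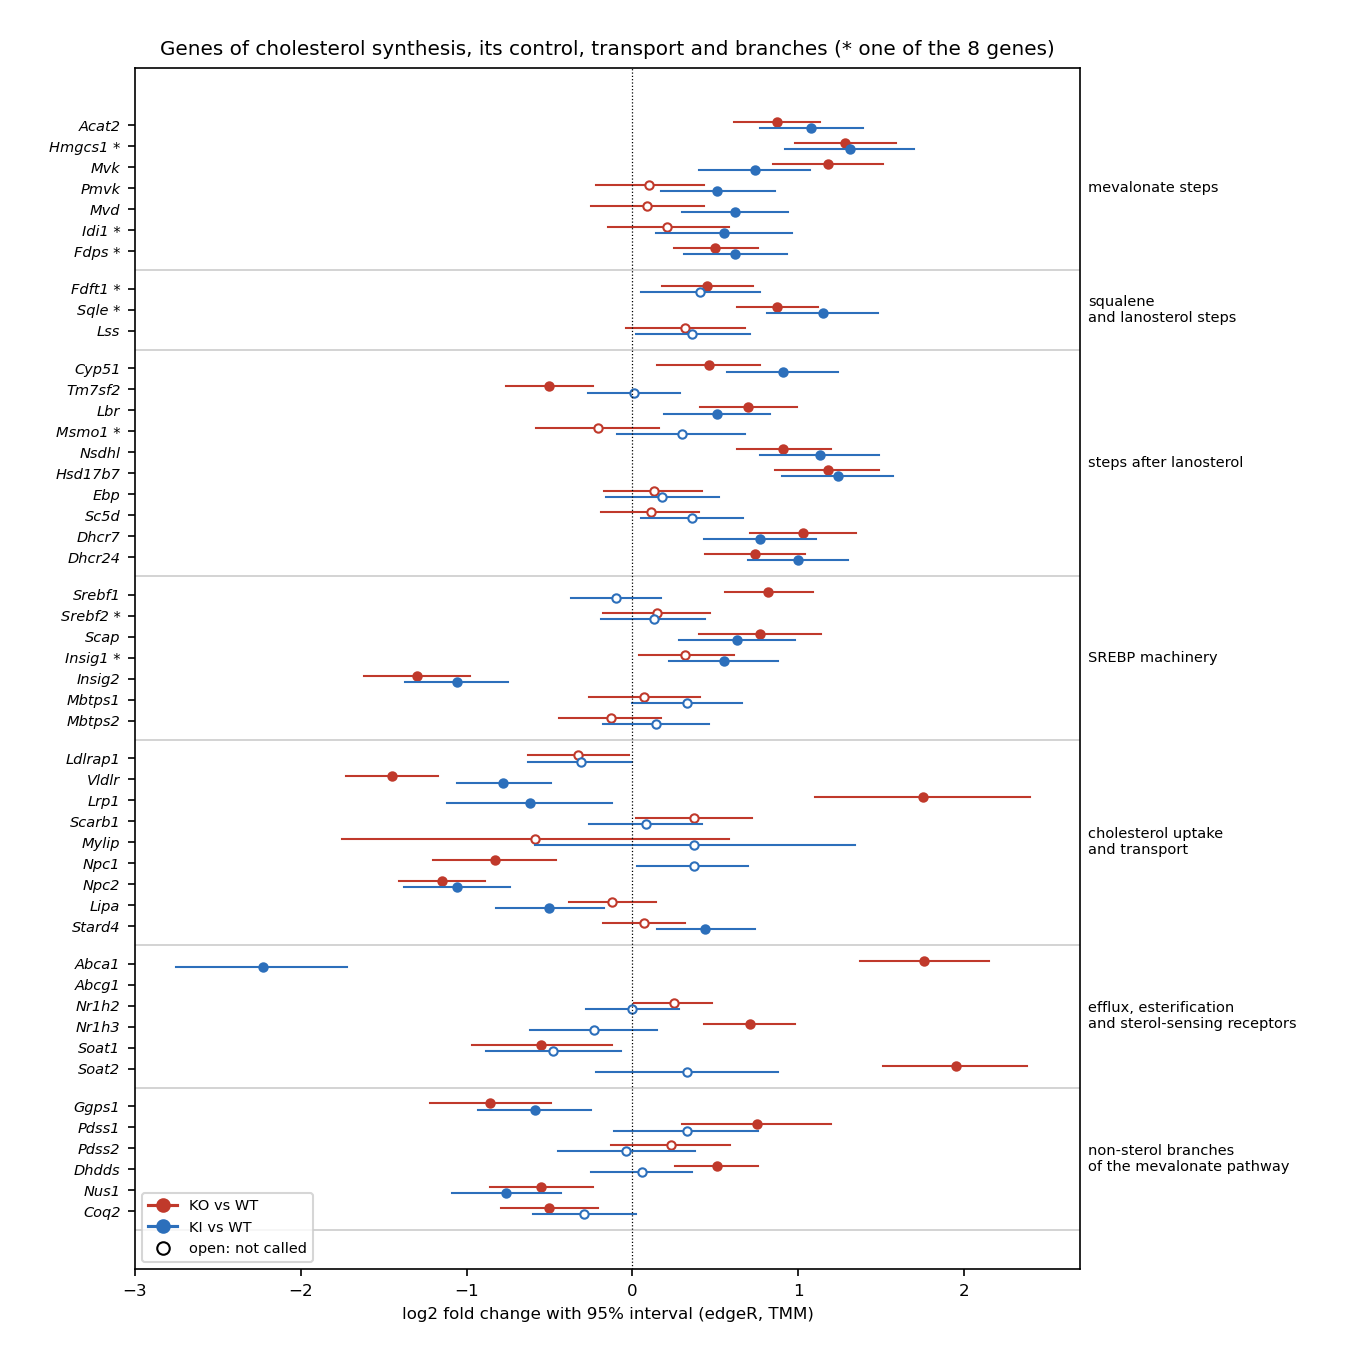
Log2 fold change with 95% intervals (horizontal axis, edgeR with TMM) of the listed genes in KO against WT (red) and KI against WT (blue), grouped by role, with an asterisk for the 8 genes and open circles for values that did not pass the test. *Abcg1* did not pass the filter on low counts and has no value. Synthesis genes lie mostly right of 0 in both colours, and *Abca1* lies at 1.76 in red and -2.23 in blue.

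The SREBP machinery, with *Srebf2* and *Insig1* included, had 2 of 7 genes (28.6%) higher and 1 lower in each comparison with WT. Of all genes, 26.7% were higher in the KO and 21.2% in the KI cells. Without *Srebf2* and *Insig1*, 2 of 5 were higher and 1 lower in the KO, and 1 of 5 was higher and 1 lower in the KI cells. With library totals 4 of 7 were higher and 1 lower in each, where 5675 of 13359 genes were higher in the KO and 4620 of 13534 in the KI cells. Those 4 included *Srebf2* (0.54) and *Insig1* (0.75) in the KO and *Insig1* (0.89) in the KI cells. *Scap*, the escort of SREBPs, rose by 0.77 in the KO and 0.63 in the KI cells on the log2 scale. *Insig2*, the partner of *Insig1* in sterol sensing, was lower in both lines, at -1.30 (adjusted p = 3.37e-05) and -1.06 (adjusted p = 0.000101), with 121 to 165 CPM in the WT, 50.6 to 66.3 CPM in the KO and 64.4 to 77.4 CPM in the KI libraries. *Srebf1*, whose product SREBP1 drives mainly fatty acid synthesis, rose by 0.82 in the KO cells (adjusted p = 0.000197) and was at -0.10 in the KI cells (adjusted p = 0.534). The direct test gave 0.95 in KO against KI (adjusted p = 1.07e-07).

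In the list of cholesterol uptake and transport, 1 of 9 genes was higher and 3 were lower in the KO cells, and 1 was higher and 4 were lower in the KI cells. Over all genes 28.4% were lower in the KO and 21.0% in the KI cells. *Vldlr*, a lipoprotein receptor, was lower in both lines, at -1.45 in the KO (adjusted p = 6.72e-06) and -0.78 in the KI cells (adjusted p = 0.000568). *Npc2*, which binds cholesterol in lysosomes, was at -1.15 and -1.06. *Lrp1*, an endocytic receptor, rose by 1.75 in the KO cells (adjusted p = 0.000531), to 98.4 to 198 CPM from 29.0 to 68.1 CPM in the WT libraries. In the KI cells it was lower, at -0.62 (adjusted p = 0.0473) with overlapping groups, and not called with library totals, at -0.33. *Stard4*, a sterol carrier and a target of SREBP2, rose by 0.44 in the KI cells (adjusted p = 0.0201) and was at 0.07 in the KO cells. The list median was -0.33 in KO and -0.31 in KI against WT and moved to 0.07 and 0.00 with library totals, where 3 genes were higher and 2 lower in the KO cells, and 2 higher and 2 lower in the KI cells. Over all genes library totals gave 5675 of 13359 higher and 2124 lower in the KO cells. In the KI cells they gave 4620 of 13534 higher and 1438 lower. *Vldlr* and *Npc2* were called lower under that scaling too.

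Among 5 tested genes of efflux, esterification and sterol sensing, 3 were higher and 1 lower in the KO cells, and 0 were higher and 1 lower in the KI cells, against 26.7% and 28.4% of all genes in the KO and 21.2% and 21.0% in the KI cells. *Abca1*, the exporter of cholesterol to apolipoproteins, was at 26.3 to 38.4 CPM in the KO, 7.67 to 10.1 CPM in the WT and 1.35 to 2.22 CPM in the KI libraries. The edited lines thus lay on opposite sides of WT, at 1.76 (adjusted p = 1.6e-05) and -2.23 (adjusted p = 1.77e-05) on the log2 scale, and the direct test gave 4.03 (adjusted p = 1.25e-10). *Soat2*, an enzyme that esterifies cholesterol, rose by 1.95 in the KO cells (adjusted p = 1.7e-05) and was at 0.33 in the KI cells (adjusted p = 0.313). Its KI value was called with library totals, at 0.66 (adjusted p = 0.044). *Soat1*, the related enzyme, was at -0.55 in the KO cells (adjusted p = 0.0322) and at -0.17 without a call with library totals. Under that scaling the list had 4 genes higher and 0 lower in the KO, and 1 higher and 1 lower in the KI cells. Of all genes, 5675 of 13359 were then higher in the KO and 4620 of 13534 in the KI cells.

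The non-sterol branches had 2 of 6 genes higher and 3 lower in the KO, and 0 higher and 2 lower in the KI cells, against the same shares of all genes. With library totals the counts were 3 higher and 1 lower in the KO and 1 higher and 1 lower in the KI cells, and the median in KO against WT went from -0.13 to 0.28. Of all genes, 5675 of 13359 were then higher and 2124 lower in the KO cells. In the KI cells 4620 of 13534 were higher and 1438 lower. *Ggps1*, which makes geranylgeranyl diphosphate, was at -0.86 in the KO and -0.59 in the KI cells, and *Nus1*, a subunit of the enzyme for dolichol precursors, was at -0.55 and -0.76. Under that scaling the calls for *Nus1* (-0.12) and *Coq2* (-0.07) in the KO and for *Ggps1* (-0.25) in the KI cells were lost, and *Pdss2* was called in the KO cells (0.62). *Pdss1*, of ubiquinone synthesis, and *Dhdds*, the other subunit beside *Nus1*, rose by 0.75 and 0.51 in the KO cells.

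In KO against KI, the 14 further synthesis enzymes had 3 genes higher and 6 lower, the uptake list 2 of 9 higher and 4 lower, the efflux list 4 of 5 higher and 0 lower, and the non-sterol list 3 of 6 higher and 0 lower. Over all genes 27.0% were called in each direction.

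The genes most like the 8 in pattern were found by Pearson's r over the 11 libraries between log2(CPM + 1) and the mean of the 8 standardised genes, among 10224 genes. They were *Kif23* (0.986), a kinesin of cell division, *Gpn1* (0.982), *Tubb5* (0.981) and *Tubb6* (0.979), both tubulins, *Nup85* (0.981), of the nuclear pore, and *Tmem97* (0.980), a sterol-regulated membrane protein. *Kif23* was at 14.7 to 18.1 CPM in the WT, 39.0 to 52.9 CPM in the KO and 45.6 to 75.8 CPM in the KI libraries. *Tmem97* was at 31.0 to 42.0 CPM in the WT, 54.1 to 61.2 CPM in the KO and 57.1 to 81.4 CPM in the KI libraries. Among the 8 genes, which enter the mean themselves, r ran from 0.991 for *Sqle* to 0.468 for *Srebf2* and 0.390 for *Msmo1*. The 100 most similar genes held 2 of the 8 and 2 further genes of the lists, and the median r over all genes was 0.088.

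The 8 genes lie on 6 chromosomes, with *Srebf2* and *Sqle* on 15 and *Hmgcs1* and *Idi1* on 13, where *Txndc5* also lies. The median log2 fold change of chromosome 13 was -0.22 in KO and -0.07 in KI against WT, and that of chromosome 15 was 0.06 and 0.22. Chromosome 14, with *Fdft1*, was at -0.35 and -0.38, and chromosome 8, with *Msmo1*, at -0.06 and 0.21 and at -0.27 in KO against KI. Chromosome 3, with *Fdps*, was at 0.12 and 0.27, and chromosome 5, with *Insig1*, at 0.01 and -0.01. Against WT, *Hmgcs1*, *Idi1*, *Fdps*, *Fdft1*, *Sqle* and *Insig1* lay above the median of their chromosomes in both lines. *Srebf2* in the KI cells (0.13 against 0.22) and *Msmo1* in the KO cells (-0.21 against -0.06) lay below it. The part of the chromosomes in these values was not tested.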

How the data were processed

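Polyadenylated RNA of AML12 cells was sequenced in 4 KO, 3 WT and 4 KI libraries. The authors deposited unnormalized read counts per gene in 11 columns, and counts of entries with the same name were summed (26462 entries used, 10 broken lines left out, 24849 genes). The submitters' processing notes name HISAT2, TopHat2, Bowtie2 and StringTie, without roles. The genome build and the counter are not given in the sources used here. The 11 FPKM columns, whose decimal points are damaged, and the fold changes and FDR values of the authors' own comparisons were not used.

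Each comparison used the libraries of its 2 groups, edgeR 4.0.16 in R 4.3.3 (filter on low counts, TMM, robust quasi-likelihood test, prior count 2) and Benjamini-Hochberg adjustment over all genes tested, with calls at an adjusted p under 0.05. DESeq2 1.42.0 and limma 3.58.1 served as alternatives, and the scripts were tested on simulated data. The alternatives were library totals or DESeq2 size factors in place of TMM, the DESeq2 test, limma on log2(CPM + 1), no filter on low counts, all 11 libraries in a single fit, entries tested on their own, the table without its 2 largest newly assembled entries, each library left out in turn, and the replicate number as a block.

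The 8 genes and the lists were chosen with earlier results of these data known. All 8 were named in every comparison. Of each list, those named were the called genes that rose most (2) and fell most (2) in KO or KI against WT, and, by pattern, the 6 most similar genes with a mean log2 CPM of at least 2. Relative levels, *Gm38481* and *Ctsb* were added after the values were seen, and *Lss*, *Lbr*, *Abcg1*, *Coq2* and *Pdss2* were named to describe lists. Lists were described by counts and medians, with no set test.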

Additional observations from a re-analysis of the deposited data

Results flagged for a closer look

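*Insig1* in KO replicate 7 stood apart from the other KO libraries, at 109 CPM against 129, 129 and 131.5 CPM. Its gap to the nearest library was 0.879 of the range of the group, above Dixon's 95% critical value for 4 samples. Of 16 groups of 4 libraries looked at, 1 was flagged in this way, and chance gives about 0.8. Without this library, edgeR called *Insig1* in KO against WT (log2 0.38, adjusted p = 0.0489).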

How the results depend on the processing

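The calls for *Hmgcs1*, *Sqle*, *Fdps* and *Fdft1* in KO against WT held under every alternative run, and those for *Hmgcs1*, *Sqle*, *Fdps* and *Insig1* in KI against WT under every one except the replicate block. The cause of the changes below was not tested.

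With library totals in place of TMM, 7 of the 8 genes were called in KO against WT, with log2 fold changes of 0.54 for *Srebf2*, 0.65 for *Idi1*, 0.75 for *Insig1* and an uncalled 0.23 for *Msmo1*. In KI against WT the same scaling gave 0.73 for *Fdft1* and 0.65 for *Msmo1*, both called, and in KO against KI 0.06 for *Hmgcs1*, not called. It made 72.8% of calls in KO against WT higher in the first group, 76.3% in KI against WT and 56.1% in KO against KI, against 48.5%, 50.2% and 50% with TMM. Of all genes tested, it called 5675 of 13359 higher in KO against WT and 4620 of 13534 in KI against WT. DESeq2 called *Insig1* at 0.30 in KO against WT and *Sqle* at -0.26 in KO against KI. *Sqle* was called at -0.26 with DESeq2 size factors in edgeR and without the 2 largest newly assembled entries as well. With all 11 libraries in a single fit, *Insig1* was called at 0.34 in KO against WT and *Fdft1* at 0.41 in KI against WT, and *Idi1* was lost in KO against KI, at -0.32, which left 1 gene called. The test with limma gave 0.01 for *Hmgcs1* in KO against KI.

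With each library left out in turn, genes called ranged from 6161 to 8449 in KO against WT, from 4276 to 6969 in KI against WT and from 6515 to 7230 in KO against KI, and 1 to 3 of the 8 genes were called in KO against KI. The log2 fold changes in KO against WT ranged from 0.07 to 0.32 for *Srebf2*, from 0.06 (without WT replicate 8) to 0.39 (without WT replicate 7) for *Idi1*, from -0.34 to 0.04 for *Msmo1* and from 0.26 to 0.44 for *Insig1*. In KI against WT they ranged from 0.03 (without WT replicate 5-6) to 0.27 (without WT replicate 8) for *Srebf2*, from 0.37 to 0.70 for *Idi1*, from 0.33 to 0.54 for *Fdft1* and from 0.14 to 0.53 for *Msmo1*. In KO against KI they ranged from -0.02 to 0.10 for *Srebf2*, from -0.13 to 0.07 for *Hmgcs1*, from -0.39 to -0.21 for *Idi1*, from -0.07 to 0.15 for *Fdft1*, from -0.36 to -0.20 for *Sqle* and from -0.30 to -0.14 for *Insig1*. Where this left the WT with fewer libraries, the spread was shared with the other group.

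Replicate numbers did not pair the libraries: deviations of libraries with the same number correlated at -0.38 to 0.50, and in KO against KI 1 of 4 KO and 0 of 4 KI libraries correlated best with their own number. With the number as a replicate block, 6163 genes were called in KO against WT, 1338 in KI against WT and 6453 in KO against KI. In KI against WT the block left 1 of the 14 further synthesis enzymes and 0 of the 7 mevalonate steps called, and 0 of the 8 genes, at -0.01 for *Srebf2*, 1.03 for *Hmgcs1*, 0.66 for *Idi1*, 0.50 for *Fdps*, 0.98 for *Sqle* and 0.52 for *Insig1*, where *Hmgcs1* and *Sqle* had an unadjusted p under 0.05 in edgeR (0.0116 and 0.0181). In KO against KI it left 1 gene called, with -0.30 for *Idi1* and 0.01 for *Hmgcs1*. Only the numbers 7 and 8 are shared with WT. At counts of at least 1863 in each library, counting error is small for all 8 genes, and the number of libraries limits the precision.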
